A study of Arabidopsis thaliana with 6 samples.

Results

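Seedlings carrying the BIN4 allele bin4-2 were compared with seedlings carrying the allele bin4-1 on Affymetrix expression arrays of Arabidopsis thaliana. The comparison uses every array whose genotype is given as bin4-2 or bin4-1, 4 of the 6 arrays of the series, with 2 arrays in each group. The other 2 arrays are of WT seedlings and give the level from which each allele moved. The groups are therefore bin4-2, bin4-1 and WT, each labelled by genotype and as seedlings. The sources used here do not give the accession, the age, the growth conditions or the DNA lesion of either allele. Nor do the labels state if both arrays of a genotype stem from different batches of plants, so the p-values below reflect array-to-array spread that could be purely technical.

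BIN4 is a plant-specific component of the topoisomerase VI complex, an enzyme that cuts both strands of DNA, passes another duplex through the gap and reseals it. The complex also holds a catalytic A subunit and an ATP-binding B subunit. In Arabidopsis it is best known for endoreduplication, the repeated copying of the genome without division that lets leaf, hypocotyl and hair cells grow large, and plants that lack it are dwarfs. An allele comparison addresses whether separate lesions of the same gene give the same transcriptome.

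Both alleles stood far from WT and close to each other. Across probe sets the log2 intensities of bin4-2 and bin4-1 arrays correlated at 0.9949 to 0.9963, the arrays within each genotype at 0.9946 to 0.9972, and mutant arrays with WT arrays at 0.9049 to 0.9162. The median log2 intensity of the arrays lay between 4.70 and 4.75. In a limma fit over 13356 genes, 6377 genes (47.7%) differed from WT in bin4-2 and 6271 (47.0%) in bin4-1, at an adjusted p under 0.05. These contrasts share the WT arrays, so each allele's own value is given side by side below. Photosynthesis and root genes, which mark green shoots and roots, had summed intensities of at least 10568 and 2838 on any array, and the 4 measured genes of seed storage and embryos were dim, with a sum between 29.7 and 38.8. No flower marker of the list was measured.

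BIN4 itself was dim in every seedling sample and lowest in bin4-2. Its log2 intensity was 2.92 and 3.05 on the bin4-2 arrays, 3.30 and 3.35 on the bin4-1 arrays, and 3.78 and 3.93 on the WT arrays. The 3 groups did not overlap. The difference between the alleles was -0.34 ± 0.11 (limma standard error, SE), which did not pass the threshold over all genes (adjusted p = 0.444) and was -0.12 with 16 intensity units added before log2. Against WT, BIN4 stood at -0.87 in bin4-2 and -0.53 in bin4-1. These values lie between the 14.6 and 37.3 percentiles of their arrays, in the dim part of the range. BIN4 was the sole topoisomerase VI gene among the genes tested, and the place of its probes along the mutated gene was not analysed here.

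bin4-2 and bin4-1 differed at 33 of the 13356 genes, which is 0.247%. Of these, 16 (0.12% of the genes tested) were higher and 17 (0.127%) were lower in bin4-2. The differences ranged from 0.575 to 2.267 in size on the log2 scale, and 6 of the 33 reached 2-fold. On each of the 33, both bin4-2 arrays lay beyond both bin4-1 arrays, which a choice by small p largely ensures. BIN4, which did not pass, separated in the same way. The share of all genes that separated is not given here. bin4-2 lay further from WT than bin4-1 at 16 of the 33 and bin4-1 lay further at 17. The median difference over all genes was -0.01, and 99.24% of genes differed by less than 0.5. At an unadjusted p under 0.05 there were 908 genes (6.8%), 480 higher (3.59%) and 428 lower (3.2%) in bin4-2. With 2 arrays per allele the count rests on every array: it was 7 without either bin4-2 array, 9 without bin4-1 replicate 1, 11 without bin4-1 replicate 2 and 51 without either WT array. With a prior variance that follows intensity, the count was 127 (0.951%), 76 higher (0.569%) and 51 lower (0.382%) in bin4-2, and included all 33. Over all 22746 probe sets, named or not, 55 passed (0.242%).

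**Figure D1:**
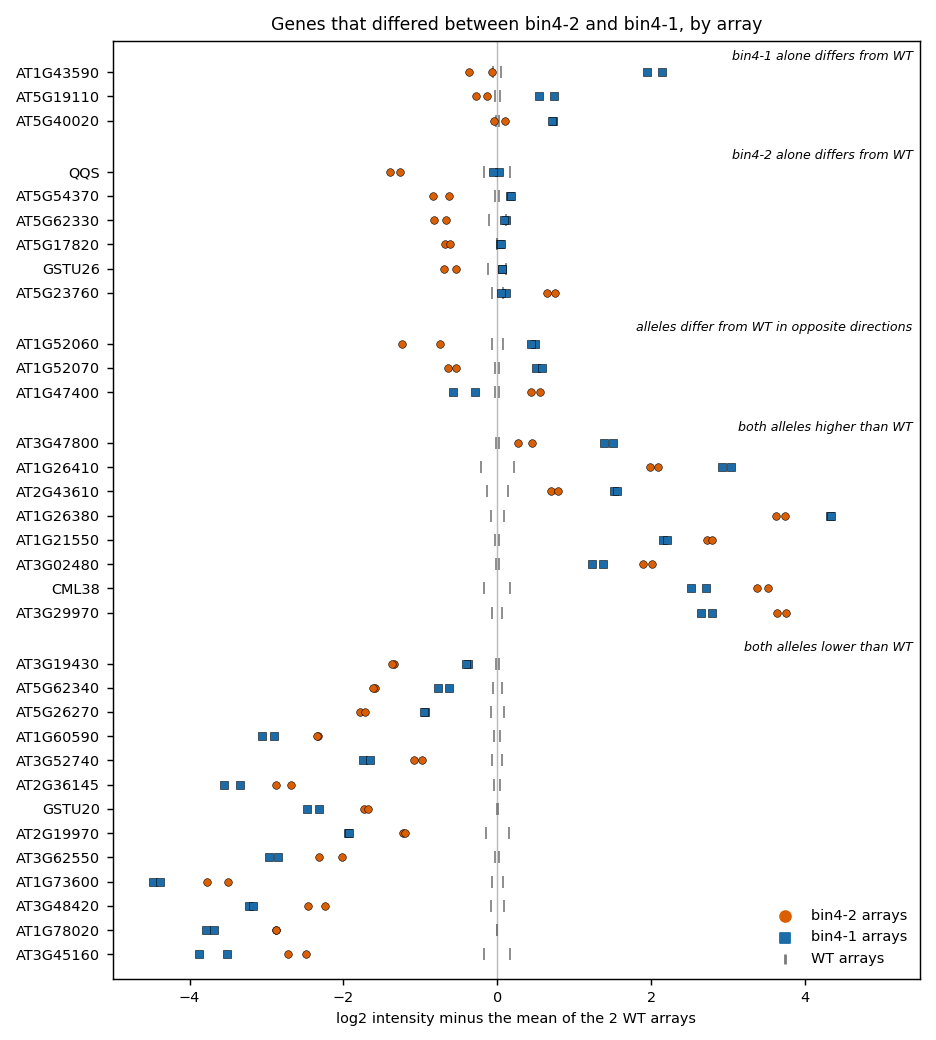
Log2 intensity of the 33 genes on each array, minus the mean of the 2 WT arrays (x axis), for bin4-2 arrays (circles), bin4-1 arrays (squares) and WT arrays (bars), with genes grouped by which allele differed from WT. The bin4-2 and bin4-1 points of a gene do not overlap, and most of the 13 genes lower than WT in both alleles have the bin4-2 points nearer to 0.

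The 33 genes fell into 5 patterns, set by which alleles passed the test against WT. At 3 genes bin4-1 alone differed from WT, at 6 genes bin4-2 alone did, and at 3 genes the alleles lay on opposite sides of WT. At 8 genes both alleles were higher than WT and at 13 genes both were lower, so that the alleles shared the direction and differed in its size. The counts higher and lower in bin4-2 were 0 and 3 for the first, 1 and 5 for the second, 1 and 2 for the third, 4 and 4 for the genes above WT, and 10 and 3 for the genes below WT. Over all genes, 47.7% differed from WT in bin4-2 and 47.0% in bin4-1. The share of all genes in each pattern is not given, so the patterns only sort the 33 genes.

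The genes at which bin4-1 alone differed from WT were all lower in bin4-2 than in bin4-1. The pseudogene AT1G43590 gave the largest difference of the 33. Its log2 intensity was 2.93 and 2.64 on the bin4-2 arrays, 4.96 and 5.15 on the bin4-1 arrays, and 3.06 and 2.95 on the WT arrays. The bin4-1 arrays stood apart, and bin4-2 and WT were alike at a dim level, between the 8.0 and 17.3 percentiles of their arrays. The difference was -2.27 ± 0.13 (SE, limma adjusted p = 1.5e-05), 4.81-fold lower in bin4-2. Its size is uncertain because the bin4-2 level is so dim. With 16 intensity units added before log2, which damps dim values, the difference was -1.10. AT5G19110, of the aspartyl protease family, had 3.97 and 4.10 in bin4-2, 4.98 and 4.78 in bin4-1, and 4.27 and 4.21 in WT (difference -0.84). AT5G40020, of the thaumatin family, had 5.40 and 5.54 in bin4-2, 6.16 and 6.14 in bin4-1, and 5.45 and 5.41 in WT (difference -0.68). In both of these the bin4-1 arrays were again the high ones, at 0.64 and 0.72 above WT.

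At 6 genes the change from WT was found in bin4-2 and did not pass in bin4-1. QQS, an Arabidopsis orphan gene whose level affects leaf starch, had a log2 intensity of 3.44 and 3.56 in bin4-2, 4.85 and 4.76 in bin4-1, and 4.66 and 4.99 in WT. The bin4-2 arrays were low and the bin4-1 arrays fell within the WT range. QQS was 2.48-fold lower in bin4-2 (difference -1.31 ± 0.13, SE, limma adjusted p = 0.0017), at -1.33 against WT, with -0.02 in bin4-1. With 16 intensity units added the difference was -0.69. It was the sole passing gene among 27 measured starch and sugar genes (0.247% of all genes passed), whose median difference was 0.04. AT5G54370 had 5.40 and 5.60 in bin4-2, 6.39 and 6.40 in bin4-1, and 6.25 and 6.20 in WT (difference -0.90, adjusted p = 0.0053). AT5G62330 had 3.40 and 3.55 in bin4-2, 4.34 and 4.32 in bin4-1, and 4.12 and 4.33 in WT (difference -0.85). In both, bin4-2 was the group that stood apart.

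The other 3 genes of that pattern were brighter or carried smaller differences. AT5G17820, a class III peroxidase of the kind secreted into cell walls, had 7.35 and 7.41 in bin4-2, 8.06 and 8.07 in bin4-1, and 8.03 and 8.02 in WT. The bin4-1 and WT arrays lay close together and the bin4-2 arrays below them, with a difference of -0.69 ± 0.10 (SE, limma adjusted p = 0.0171). GSTU26, a tau-class glutathione transferase, which joins glutathione to toxic compounds, had 5.56 and 5.71 in bin4-2, 6.31 and 6.32 in bin4-1, and 6.13 and 6.37 in WT. AT5G23760, of a family of heavy-metal-binding proteins, was the sole gene of the 6 that was higher in bin4-2. It had 6.37 and 6.47 in bin4-2, 5.84 and 5.77 in bin4-1, and 5.79 and 5.64 in WT, a difference of 0.61 (adjusted p = 0.0463).

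A pair of neighbouring lectin genes and an iron-uptake peptide lay on opposite sides of WT in the alleles. AT1G52060 and AT1G52070 encode jacalin-related lectins, proteins that bind sugars. AT1G52060 had a log2 intensity of 4.59 and 5.08 in bin4-2, 6.32 and 6.26 in bin4-1, and 5.90 and 5.75 in WT. AT1G52070 had 6.23 and 6.33 in bin4-2, 7.36 and 7.45 in bin4-1, and 6.88 and 6.84 in WT. At both genes the bin4-2 arrays were lowest, the WT arrays between and the bin4-1 arrays highest, without overlap. The differences were -1.46 ± 0.15 (SE, limma adjusted p = 0.00175) and -1.13 ± 0.10 (adjusted p = 0.00158). AT1G47400 encodes a short peptide of the IRONMAN type, which raises iron uptake in roots. It ran the other way, with 6.14 and 6.26 in bin4-2, 5.41 and 5.12 in bin4-1, and 5.73 and 5.68 in WT. Its difference was 0.94 ± 0.12 (SE, adjusted p = 0.00758), at 0.50 against WT in bin4-2 and -0.44 in bin4-1.

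Among genes higher than WT in both alleles, 4 were lower and 4 higher in bin4-2. AT3G47800, a galactose mutarotase-like gene of sugar metabolism, had 6.05 and 6.23 in bin4-2, 7.16 and 7.28 in bin4-1, and 5.76 and 5.79 in WT. bin4-2 lay slightly above WT and bin4-1 well above it, at 0.36 and 1.44. The difference was -1.08 ± 0.11 (SE, limma adjusted p = 0.00175). AT1G26410 and AT1G26380 encode berberine-bridge-like oxidases, a family that oxidises small molecules in defence. AT1G26410 had 5.10 and 5.20 in bin4-2, 6.03 and 6.15 in bin4-1, and 3.33 and 2.90 in WT. AT1G26380 had 6.83 and 6.94 in bin4-2, 7.53 and 7.55 in bin4-1, and 3.12 and 3.29 in WT. In both, all 4 mutant arrays were far above WT and bin4-2 was the lower of the alleles, with differences of -0.94 and -0.65. AT2G43610, of the chitinase family, had 7.42 and 7.51 in bin4-2, 8.25 and 8.29 in bin4-1, and 6.59 and 6.86 in WT.

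The 4 genes with the higher level in bin4-2 were led by AT3G29970, which encodes a B12D protein. It had 6.95 and 7.06 in bin4-2, 6.10 and 5.95 in bin4-1, and 3.37 and 3.24 in WT. The alleles lay 3.70 and 2.72 above WT, a difference of 0.98 ± 0.11 (SE, limma adjusted p = 0.00358). CML38, a calmodulin-like calcium sensor induced by wounding and low oxygen, had 7.28 and 7.14 in bin4-2, 6.48 and 6.29 in bin4-1, and 3.60 and 3.93 in WT. AT1G21550, another EF-hand calcium-binding gene, had 5.91 and 5.97 in bin4-2, 5.34 and 5.39 in bin4-1, and 3.21 and 3.16 in WT. Both calcium-binding genes stood higher in bin4-2 than in bin4-1, by 0.82 and 0.58. AT3G02480, of the late embryogenesis abundant family, which is made in drying seeds and under drought, had 7.99 and 8.10 in bin4-2, 7.46 and 7.32 in bin4-1, and 6.11 and 6.08 in WT (difference 0.65).

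Of the 13 genes lower than WT in both alleles, 10 were higher in bin4-2 and so nearer to WT there. Genes below WT did not lean this way as a whole. Of the 3852 genes that passed as lower than WT in the mean of both alleles, 51.4% were higher in bin4-2. Their median difference was 0.006. AT1G78020, which encodes an FLZ zinc-finger protein, had 5.87 and 5.88 in bin4-2, 5.06 and 4.97 in bin4-1, and 8.74 and 8.75 in WT. The difference was 0.86 ± 0.10 (SE, limma adjusted p = 0.00443), with the alleles at -2.87 and -3.73 against WT. AT3G48420, a chloroplast sugar phosphatase of the CbbY type, had 6.61 and 6.83 in bin4-2, 5.84 and 5.89 in bin4-1, and 9.15 and 8.99 in WT. At both genes the mutant arrays were far below WT, with bin4-1 the lower.

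AT1G73600, a phosphoethanolamine methyltransferase that makes the head group of phosphatidylcholine, had 4.62 and 4.90 in bin4-2, 3.92 and 4.01 in bin4-1, and 8.46 and 8.32 in WT. Its changes from WT, -3.63 and -4.42, were the lowest of the 33. AT3G45160 had 5.76 and 5.52 in bin4-2, 4.36 and 4.73 in bin4-1, and 8.41 and 8.07 in WT. At 1.09 ± 0.15 (SE, limma adjusted p = 0.0147) it had the largest difference among the passing genes that were higher in bin4-2. GSTU20, another tau-class glutathione transferase, had 8.45 and 8.50 in bin4-2, 7.71 and 7.86 in bin4-1, and 10.18 and 10.19 in WT (difference 0.69). AT3G62550, similar to universal stress proteins, had 7.28 and 7.59 in bin4-2, 6.75 and 6.64 in bin4-1, and 9.58 and 9.63 in WT (difference 0.74). The other 4 were AT2G19970, of the secreted CAP protein family (difference 0.72), AT2G36145 (0.68), AT3G52740, an inhibitor of the cryptochrome blue-light receptors (0.67), and AT1G60590, of the pectin lyase-like family (0.65).

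The 3 genes below WT in both alleles and lower still in bin4-2 were AT3G19430, AT5G62340 and AT5G26270. AT3G19430 had 3.93 and 3.90 in bin4-2, 4.89 and 4.86 in bin4-1, and 5.25 and 5.29 in WT, a difference of -0.96 ± 0.10 (SE, limma adjusted p = 0.0018). AT5G62340, of a family that inhibits invertases and pectin methylesterases, had 5.27 and 5.24 in bin4-2, 6.23 and 6.09 in bin4-1, and 6.91 and 6.80 in WT. AT5G26270 had 3.89 and 3.95 in bin4-2, 4.73 and 4.72 in bin4-1, and 5.75 and 5.58 in WT. In each of the 3, bin4-1 lay between bin4-2 and WT. Of all 33 genes, 6 passed with each of the 4 mutant arrays left out in turn: AT1G43590, AT1G52070, QQS, AT1G52060, AT3G47800 and AT3G19430. These 6 were all lower in bin4-2. A further 20 of the 33 passed in none of these smaller fits. With 16 intensity units added before log2, 11 of the 33 differences shrank by more than 1.5 times, and 9 genes no longer passed: AT5G62330, GSTU26, AT3G45160, AT1G73600, AT3G52740, AT1G60590, AT2G19970, AT3G62550 and AT2G36145.

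The genes furthest below WT in both alleles stood nearer to WT in bin4-2. To describe this without favouring an allele, genes were placed in steps of their mean change over both alleles against WT, in which bin4-2 and bin4-1 weigh equally. In the 138 genes with a mean change of -2 or less, a fall of at least 4-fold, the median change from WT was -2.26 and -2.18 on the bin4-2 arrays and -2.48 and -2.47 on the bin4-1 arrays. The bin4-2 arrays lay nearer to WT and did not overlap the bin4-1 arrays. The median difference between the alleles was 0.29 (quartiles 0.14 and 0.43), and 126 of the 138 genes (91.3%) were higher in bin4-2, against 46.8% of all genes. With 16 intensity units added before log2, the median difference was 0.18. Of the 138, 8 passed the test as higher and 0 as lower in bin4-2, beside 0.12% and 0.127% of all genes. At an unadjusted p under 0.05 the counts were 75 and 1, beside 3.59% and 3.2%. With a prior variance that follows intensity, 33 of them passed as higher and 0 as lower, beside 0.569% and 0.382%.

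**Figure D2:**
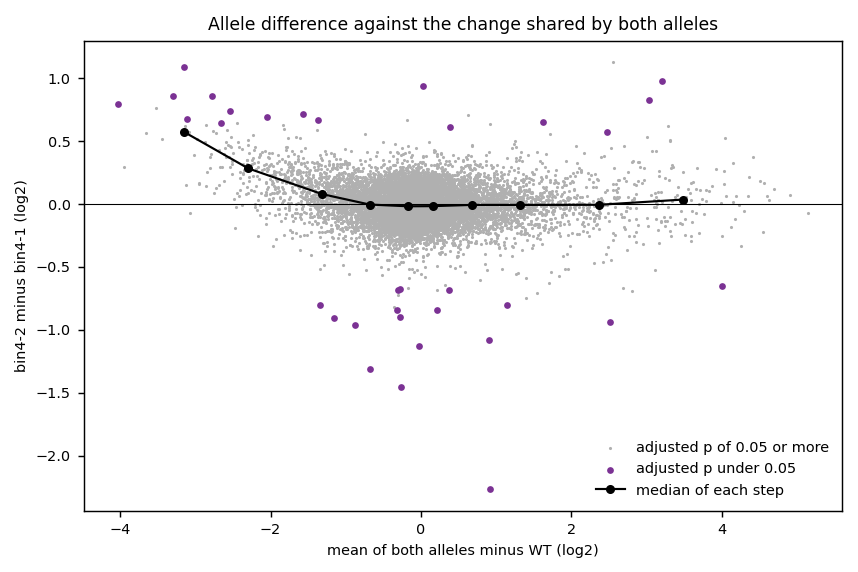
Difference between bin4-2 and bin4-1 (y axis, log2) against the mean change of both alleles from WT (x axis, log2), 1 point per gene, with the 33 passing genes in purple and the median of each step of mean change as a black line. The line stays near 0 over most of its length and climbs to 0.28 and 0.57 in the 2 lowest steps.

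The difference grew with the depth of the fall. In the 13 genes with a mean change under -3, the median difference was 0.57, 12 of 13 were higher in bin4-2 and 4 passed, all higher. In the 125 genes between -3 and -2 it was 0.28, with 114 higher in bin4-2. Among 752 genes between -2 and -1 it was 0.08, with 66.5% higher. The genes raised by both alleles did not show a median difference of this size. In the 284 genes with a mean change of 2 or more, the median difference was 0.01, 52.5% were higher in bin4-2, and 3 passed as higher and 2 as lower. In the 179 genes between 2 and 3 it was -0.01, with 47.49% higher. In the 105 genes at 3 or more it was 0.04, with 60.95% higher. Of these 105, 18 were higher and 6 lower at an unadjusted p under 0.05. Members of a step were not independent of each other, and the steps are given without a test.

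**Figure D3:**
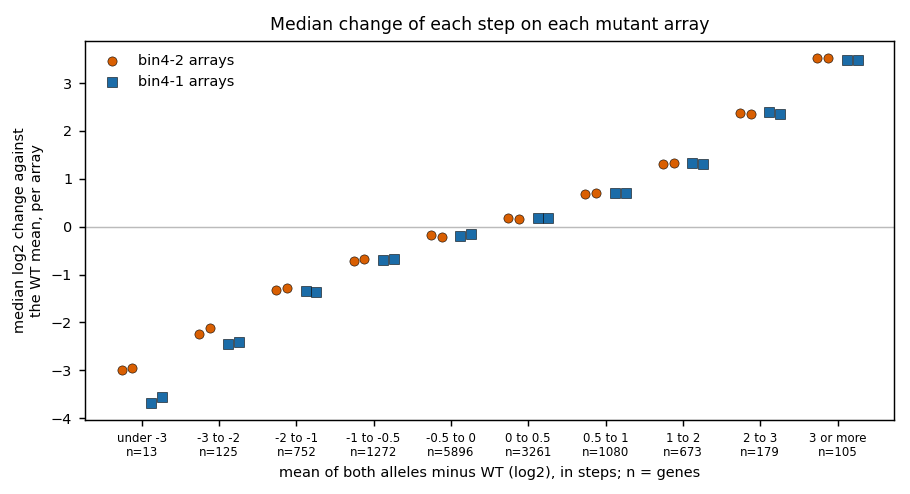
Median log2 change from the WT mean (y axis) of the genes in each step of mean change (x axis, with the number of genes), for each bin4-2 array (circles) and each bin4-1 array (squares). In the 2 lowest steps both bin4-2 arrays lie above both bin4-1 arrays, and in the steps above them the arrays nearly coincide.

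Photosynthesis genes encoded in the nucleus were mostly below WT in both alleles, and most of them stood nearer to WT in bin4-2 without passing the test between alleles. Of 21 measured genes of light harvesting, photosystems, carbon fixation and chlorophyll synthesis, 0 passed, beside 0.247% of all genes. Their median difference was 0.20, against -0.01 over all genes, with 17 of 21 higher in bin4-2. Their median change from WT was -1.36 in bin4-2 and -1.53 in bin4-1. All genes between -2 and -1 had a median difference of 0.08, with 66.5% higher in bin4-2. Those between -3 and -2 had 0.28, with 91.2% higher, so the lean is not particular to photosynthesis genes. In the list, 10 were higher and 0 lower at an unadjusted p under 0.05, beside 3.59% and 3.2% of all genes. LHCB4.2, an antenna protein of photosystem II, had a log2 intensity of 9.06 and 9.24 in bin4-2, 8.66 and 8.64 in bin4-1, and 11.32 and 11.33 in WT (difference 0.50, limma adjusted p = 0.106). PRK, which makes the carbon dioxide acceptor of carbon fixation, had 8.97 and 8.99 in bin4-2, 8.62 and 8.61 in bin4-1, and 11.03 and 11.02 in WT (difference 0.36, adjusted p = 0.281). RCA, the activase of Rubisco, had 10.38 and 10.46 in bin4-2, 10.06 and 10.05 in bin4-1, and 12.21 and 12.30 in WT (difference 0.37, adjusted p = 0.311). In these 3 the alleles did not overlap and bin4-2 was nearer to WT. CHLI2, a subunit of the magnesium chelatase of chlorophyll synthesis, had 6.03 and 6.32 in bin4-2, 5.83 and 5.66 in bin4-1, and 7.78 and 7.74 in WT. PORB, a protochlorophyllide reductase, and HEMA2, a glutamyl-tRNA reductase, gave differences of -0.11 and -0.22. HEMA2 was higher than WT in both alleles.

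These counts depend on how the spread of bright genes is estimated. With a prior variance that follows intensity, 6 of the 21 passed as higher in bin4-2 (LHCB4.2, PRK, RCA, SBPASE, PSBY and PSAN), against 0.569% of all genes. Genes of the plastid genome gave no stable value. The median difference of 69 plastid genes was 0.09, with 0 passing (0.247% of all genes passed). It was -0.06 without bin4-2 replicate 1 and 0.22 without bin4-2 replicate 2.

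Root markers ran the other way, with the lowest summed level in bin4-2. In RNA of whole seedlings, fewer cells of a type and less RNA per cell cannot be told apart, here and for the photosynthesis genes. Of the 6 measured genes of the list, the lectins AT1G52060 and AT1G52070, described above, were placed in it with their values known, and nothing is drawn from the list with them in it. Of the other 4, 0 passed (0.247% of all genes passed), and all 4 lay lower in bin4-2, with a median difference of -0.21 against -0.01 over all genes. The summed intensity of the 4 genes was 2838 and 2892 on the bin4-2 arrays, 3239 and 3183 on the bin4-1 arrays, and 3718 and 3641 on the WT arrays. AT5G66390, a class III peroxidase of roots, had a log2 intensity of 6.43 and 6.45 in bin4-2, 6.99 and 6.80 in bin4-1, and 7.005 and 6.856 in WT (difference -0.46, limma adjusted p = 0.195). JAL33, a jacalin-related lectin, differed by -0.28, the peroxidase AT4G30170 by -0.14 and PYK10, the beta-glucosidase of root endoplasmic-reticulum bodies, by -0.12. With a prior variance that follows intensity, 2 of the 4 passed as lower, beside 0.382% of all genes.

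Root-hair genes were also lowest in bin4-2, with 0 of 3 passing (0.247% of all genes passed). EXPA18 and EXPA7 are expansins that loosen the wall of growing hairs, and GH9C1 is an endoglucanase of root hairs. EXPA18 had 4.42 and 4.16 in bin4-2, 4.60 and 4.73 in bin4-1, and 5.72 and 5.78 in WT. EXPA7 had 4.13 and 4.36 in bin4-2, 4.62 and 4.60 in bin4-1, and 4.72 and 4.91 in WT. In both the bin4-2 arrays were the lowest. The differences were -0.37, -0.36 and -0.25, each with an unadjusted p under 0.05 (3.2% of all genes were lower at that level) and an adjusted p of at least 0.444. Their median was -0.36, and -0.21 with 16 intensity units added before log2. Whether the share of root tissue in the seedlings moved with the 33 genes was not tested.

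**Figure D4:**
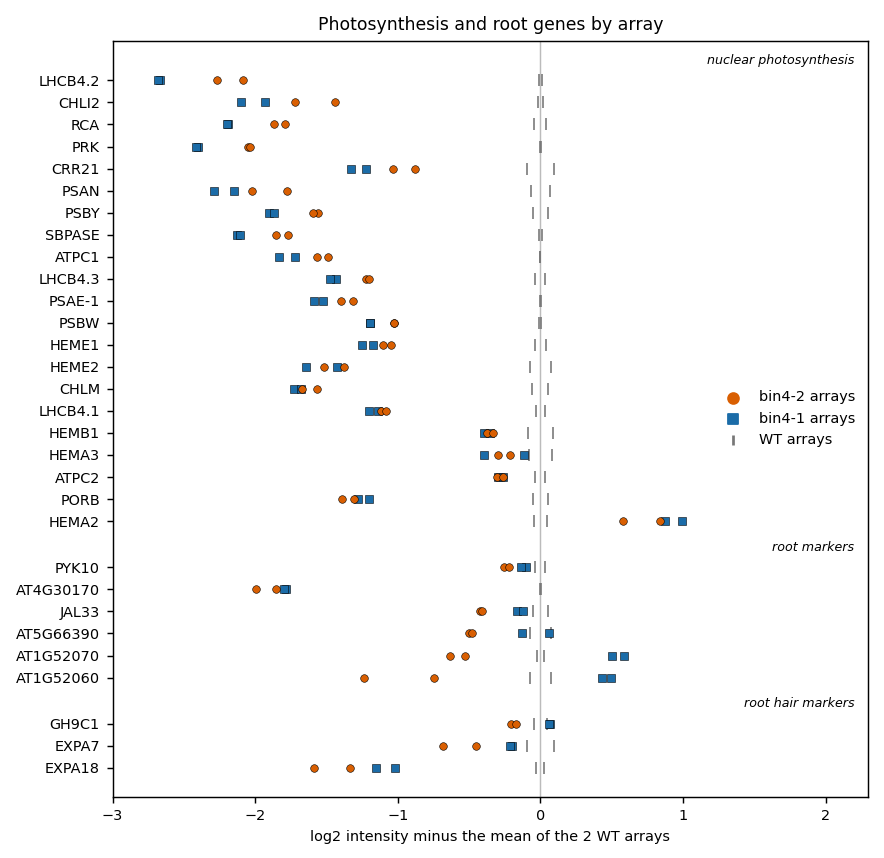
Log2 intensity of each measured nuclear photosynthesis, root and root-hair gene, minus the mean of the 2 WT arrays (x axis), for bin4-2 arrays (circles), bin4-1 arrays (squares) and WT arrays (bars). By their means, the bin4-2 points lie to the right of the bin4-1 points for 17 of 21 photosynthesis genes. They lie to the left for the 4 root genes other than AT1G52060 and AT1G52070, and for all 3 root-hair genes. Those 2 lectins are shown but were placed in the list with their values known.

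Other groups held few passing genes. Of 45 lists, 4 had no measured member, and 7 held a gene that passed between alleles. These 7 include the windows around the centromeres and around BIN4, and the pseudogene list. They also include the root markers, where only the 2 lectins placed with their values known passed. The remaining ones are the starch and sugar genes and the glutathione transferases. QQS and AT1G43590 each count in more than 1 list. The lists were drawn from gene symbols, so genes known by a locus number alone are mostly outside them. Among 14 glutathione transferases, GSTU20 was higher and GSTU26 lower in bin4-2 (0.247% of all genes passed), and the median difference was -0.05. Among 3 jasmonate-response genes 0 passed. PDF1.2b, a defensin of the jasmonate and ethylene response, had 7.35 and 7.25 in bin4-2, 6.83 and 6.84 in bin4-1, and 4.91 and 5.11 in WT (difference 0.47, limma adjusted p = 0.171). PDF1.2 differed by 0.64 and the thionin THI2.1 by -0.15. Of 4 glucosinolate genes 0 passed, led by BCAT4, the aminotransferase that begins methionine chain elongation, with 7.48 and 7.54 in bin4-2, 7.01 and 6.95 in bin4-1, and 8.83 and 8.88 in WT (difference 0.53, adjusted p = 0.0615).

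Of 14 genes of the cold, drought and abscisic acid list 0 passed (0.247% of all genes passed), and the median difference was 0.02. COR15A, a cold-induced chloroplast protein, had 4.53 and 4.79 in bin4-2, 4.08 and 3.98 in bin4-1, and 6.24 and 6.13 in WT (difference 0.63, limma adjusted p = 0.0586). LEA18 differed by 0.71 and LEA4-5, also a late embryogenesis abundant protein, by 0.45. The cysteine protease CP1, by contrast, differed by -0.59, and 7 of the 14 were lower in bin4-2. The 990 pseudogenes and transposon genes had a median difference of -0.01 and 1 passing member, AT1G43590 (0.101%, beside 0.247% of all genes). At an unadjusted p under 0.05 there were 5 of them higher and 16 lower in bin4-2, smaller shares than the 3.59% and 3.2% of all genes.

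The 33 genes lay on chromosomes 1, 2, 3 and 5. There were 13 of 3411 genes tested on chromosome 1 (0.381%), 3 of 2169 on chromosome 2 (0.138%), 9 of 2720 on chromosome 3 (0.331%), 0 of 1935 on chromosome 4 and 8 of 2982 on chromosome 5 (0.268%). In windows around the centromeres, where heterochromatin is dense, 3 of 1147 core genes (0.262%) and 4 of 1128 flanking genes (0.355%) passed, beside 0.247% of all genes. The median difference was -0.01 in each window. Between AT5G22000 and AT5G27000, the stretch of chromosome 5 around BIN4, 2 of 216 genes passed (0.926%).

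Of the 33 genes, 6 formed 3 pairs within 5 loci of each other, in each case with the same sign. The share of all genes in such pairs is not given here, so the pairs are only described. The pairs are AT1G26380 with AT1G26410, AT1G52060 with AT1G52070, and AT5G62330 with AT5G62340. The genes around each pair were looked up after the pairs were seen. Beside the lectin pair, AT1G52050, a further jacalin-related lectin, had 4.69 and 4.89 in bin4-2, 5.46 and 5.58 in bin4-1, and 5.27 and 5.65 in WT (difference -0.73, limma adjusted p = 0.0615), while AT1G52100 differed by 0.04. Between the oxidase pair, AT1G26390 differed by 0.03 and AT1G26400 by -0.27. Next to the pair on chromosome 5, the related inhibitor genes AT5G62350 and AT5G62360 differed by -0.06 and 0.16. The neighbours thus did not all share the difference of the pair.

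The genes just outside the threshold show where it lay. AT1G21550, the last gene inside, had an adjusted p of 0.0488. The first outside was HYH, a bZIP factor that acts with HY5 in light responses, with 5.92 and 5.92 in bin4-2, 5.29 and 5.22 in bin4-1, and 5.92 and 5.63 in WT (difference 0.67, limma adjusted p = 0.0509). AT2G38240, an oxygenase that hydroxylates jasmonate, was the sole gene with a difference of at least 2-fold that did not pass. It had 7.12 and 7.24 in bin4-2, 6.10 and 6.01 in bin4-1, and 3.65 and 4.47 in WT, with the WT arrays further apart than the alleles' arrays (difference 1.13, adjusted p = 0.0555). LEA18 (0.71), AT5G01015 (0.59) and AT3G21670, a nitrate transporter (0.56), were also higher in bin4-2. The cysteine protease CP1 (-0.59), the chitinase-family gene AT4G01700 (-0.69), the pseudogene AT3G42820 (-0.59), AT2G23270 (-0.54) and the aminotransferase-family gene AT4G28420 (-0.56) were lower, each with an adjusted p of at most 0.0586.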

How the data were processed

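RNA of Arabidopsis seedlings was measured on 6 single-channel Affymetrix arrays, 2 each of bin4-2, bin4-1 and WT, grouped by the labelled genotype. The authors deposited intensities made with RMA, per the submitters' processing notes (version not given in the sources used here). They are on a linear scale, so log2 was taken from the deposited values. Of 22810 probe sets, 64 are controls; 13513 name exactly 1 gene in the platform annotation, 503 several and 8730 none. Names follow the RefSeq gene table (TAIR10.1), which matched 13436, and protein families come from general knowledge of Arabidopsis. For 146 genes the brightest of several probe sets was kept, leaving 13356 genes. No probe was cut as background, so the size of differences from dim values is uncertain. Precision is limited by the number of arrays.

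limma 3.58.1 in R 4.3.3 fitted 3 group means to all 6 arrays (lmFit and eBayes, 2-sided, Benjamini-Hochberg over all genes, threshold 0.05), with 3 residual and 8.25 prior degrees of freedom. The fit was tested on simulated data. Tables were made in Python 3.11.15 (numpy 2.4.6, pandas 2.3.3) and plots with matplotlib 3.10.9. Named are all passing genes, the 10 smallest p outside the threshold, topoisomerase VI genes, and passing and up to 4 further members of each list described. The comparison, the members and the lists were chosen with earlier results of these data known; list patterns that caught unrelated genes were corrected after values were seen. Over all genes, deviations of same-numbered arrays correlated at -0.045 to 0.077, and the main fit did not pair them. This does not exclude a shift shared by replicate number in some genes. The summed intensity of the 69 plastid genes was higher on replicate 1 than on replicate 2 in each group. It was 40626.4 and 34210.5 in bin4-2, 36118.7 and 33891 in bin4-1, and 51016.4 and 45577 in WT. Alternatives changed the probe sets, arrays, prior, normalization, centring, added intensity, filter, block and threshold. Differences in probe position and the sequencing data of the study were not analysed here.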

Additional observations from a re-analysis of the deposited data

Results flagged for a closer look

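The change from WT differed between the alleles at 33 genes, by the limma test of bin4-2 against bin4-1. That test equals the difference of the 2 changes, because WT cancels. Effects of the lesions cannot be told apart from other differences between the lines or their growth. Values below are bin4-2 minus bin4-1 on the log2 scale. Where bin4-1 alone differed from WT, the genes were AT1G43590 (-2.27), AT5G19110 (-0.84) and AT5G40020 (-0.68). Where bin4-2 alone differed, the lower ones were QQS (-1.31), AT5G54370 (-0.90), AT5G62330 (-0.85), AT5G17820 (-0.69) and GSTU26 (-0.68), and AT5G23760 (0.61) was higher. On opposite sides of WT lay AT1G52070 (-1.13), AT1G52060 (-1.46) and AT1G47400 (0.94). With both alleles above WT, AT3G47800 (-1.08), AT2G43610 (-0.80), AT1G26410 (-0.94) and AT1G26380 (-0.65) were lower in bin4-2, and AT3G29970 (0.98), CML38 (0.82), AT3G02480 (0.65) and AT1G21550 (0.58) were higher. With both alleles below WT, AT3G19430 (-0.96), AT5G62340 (-0.90) and AT5G26270 (-0.80) were lower in bin4-2. The genes below WT that were higher in bin4-2 were AT1G78020 (0.86), AT3G48420 (0.86), AT3G45160 (1.09), GSTU20 (0.69), AT1G73600 (0.79), AT3G52740 (0.67), AT1G60590 (0.65), AT2G19970 (0.72), AT3G62550 (0.74) and AT2G36145 (0.68). With 2 arrays per group, no array was tested for standing apart from its group.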

How the results depend on the processing

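The count of 33 genes was 55 over all probe sets, named or not, 51 with the 4 mutant arrays alone, and 127 with an intensity-dependent prior variance. It was 117 with that prior and a mean log2 of at least 5, an alternative chosen after seeing the data. It was 6 with a requirement of at least 2-fold and 73 at an adjusted p under 0.10. Leaving out 1 array gave between 7 and 51. Without either WT array the fit has the same residual degrees of freedom as the 4 mutant arrays alone, and gives the same 51. Robust eBayes, quantile normalization, median centring, 16 added intensity units and the intensity filter gave 32, 33, 31, 37 and 46. With the replicate block the count was 25, 23 of them among the 33, a change of under 1.5 times. Of the 25, 9 were higher and 16 lower in bin4-2, beside 16 and 17 in the main fit. The probe-set, prior, filter, block and WT-array alternatives leave the difference of a gene itself as it was. Leaving out 1 mutant array cannot reverse the sign of a gene whose alleles do not overlap. Over 643 pairs of a gene and an alternative, 0 changed direction, an outcome thus largely fixed in advance. Of these, 475 kept their side of the threshold, 124 lost their call and 44 gained one. The median difference of the 138 genes furthest below WT was 0.18 with 16 intensity units added, 0.35 with the intensity filter, and 0.25 to 0.36 with each mutant array left out, all added after seeing the data. The cause of these shifts in counts and medians was not tested. Dim genes such as AT1G43590 and BIN4 are limited by signal near the low end of the arrays.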

Other observations

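Probe sets that name no gene or several genes held further differences between the alleles. Over all 22746 probe sets other than controls, 55 passed (0.242%), of which 20 name no gene in the annotation used here and 3 name several. The probe set 258239_at had a log2 intensity of 6.41 and 6.79 in bin4-2, 4.46 and 4.40 in bin4-1, and 10.01 and 10.11 in WT. Its difference of 2.17 ± 0.13 (SE, limma adjusted p = 9.07e-05) left both alleles far below WT, with bin4-2 the nearer. The probe set 255591_at had 3.05 and 3.11 in bin4-2, 4.999 and 4.718 in bin4-1, and 3.77 and 3.92 in WT, so that the alleles lay on opposite sides of WT (difference -1.78). The probe set 262427_s_at had 5.38 and 5.21 in bin4-2, 6.58 and 6.63 in bin4-1, and 6.74 and 6.68 in WT, low in bin4-2 (difference -1.31).

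With a prior variance that follows intensity, the 94 genes gained beyond the 33 were mostly higher in bin4-2. Among the 12934 genes with a mean change between -2 and 2 that fit called 78, 33 higher and 45 lower in bin4-2. Among the 284 genes at 2 or more it called 16, 10 higher and 6 lower. Of all genes it called 0.569% higher and 0.382% lower.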
